A study of Mus musculus with 12 samples.

Results

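Gene expression in wild type mouse lungs injured by mechanical ventilation was compared with that in wild type lungs of the control group, over all genes that the arrays measured. The 6 wild type samples were chosen by their titles from the 12 of the study: 3 titled WT-VILI (replicates 1 to 3) and 3 titled WT-SB (replicates 1 to 3). All 6 were lung tissue of mice labelled wild type and aged 8 to 12 weeks, with total RNA hybridised to single-colour Affymetrix mouse arrays. The series design counts 3 mice per group, and the arrays were taken as separate animals. VILI is ventilator-induced lung injury, made here by 4 hours of ventilation with breaths of 30 ml/kg, 65 of them each minute. SB is not spelled out in the labels, and the series design names that wild type group as the control. The labels name no deletion, transgene or drug for either wild type group. The remaining 6 samples, not described for themselves, were lungs of mice with a Gadd45 deletion (written GADD45-/- or GADD-/- in the labels, Gadd45a in the series title) under the same 2 treatments. The labels read here state no strain, sex, anaesthesia or time of day of collection, and every sample, VILI included, has a description field that calls it a control animal.

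Large breaths stretch the alveolar wall beyond its usual range and damage the thin type I epithelium and the capillary endothelium that together form the gas exchange surface. Injured lung cells release chemokines and cytokines, and neutrophils, short-lived white blood cells that are held in lung capillaries in large numbers, are drawn into the tissue. High tidal volume ventilation in mice is a widely used model of the lung injury that ventilated patients can suffer.

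Expression is given as deposited log2 values, on which a difference of 1 is a doubling, and differences are VILI minus SB with the standard error (SE) of the fit. The arrays had medians of 4.37 to 4.49 over all probe sets, and a gene below its array's median carried little signal, so that its fold change is approximate. Precision is limited by the number of arrays, 3 per group. The first principal component of the 6 wild type arrays held 48.5% of the variance and separated the groups, with SB between -29.10 and -15.88 and VILI between 17.65 and 27.42. The second held 21.9% and separated SB replicate 2 (-28.24) from SB replicates 1 and 3 (23.86 and 7.21), while the VILI arrays lay between -3.10 and 0.66. VILI replicates 1 and 2 correlated at 0.995 over genes, more closely than the other wild type pairs within a group (0.972 to 0.984), and nothing in the labels says whether they share a source beyond the group. Control probe sets at the 3' and 5' ends of Actb differed by 1.07, 1.07 and 1.10 in SB and by 0.62, 0.64 and 0.89 in VILI, a smaller 3' excess in every VILI array. The same difference for Gapdh was 0.51, 0.67 and 0.49 in SB and -0.11, 0.04 and 0.44 in VILI. The part of this difference in the results was not tested. The Y-linked genes Eif2s3y (10.58, 10.57 and 10.63 in SB, 10.31, 10.64 and 10.43 in VILI) and Kdm5d were expressed on all 6 arrays, and Xist lay between 2.77 and 2.81, at the level of unexpressed genes, so the groups were alike in this respect. Gadd45a, the targeted gene, read 4.87, 6.15 and 4.58 in knockout SB and 5.87, 6.02 and 5.36 in knockout VILI, against 8.62, 9.51 and 8.69 and 9.75, 9.77 and 10.33 in wild type SB and VILI.

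Of 10996 genes tested with limma, 290 (2.64%) passed an adjusted p of 0.05, 149 higher after VILI (1.36%) and 141 lower (1.28%). Rises were larger than falls. Among the called genes 83 rose and 42 fell by more than 2-fold, 33 rose and 3 fell by more than 4-fold, and 12 rose and 0 fell by more than 8-fold. The median called rise was 1.14 and the median called fall -0.85, while the middle 90% of all genes lay between -0.62 and 0.61 with a median of -0.05. In 1278 genes (11.6%) each VILI array lay above each SB array, and in 2201 genes (20%) below, and all 290 called genes were among these. The division into higher and lower calls depended on scaling: the share of higher calls was 51.4%, but 64.8% (190 higher, 103 lower) after centring arrays on their medians and 40.9% (138 higher, 199 lower) after quantile normalization. The number of calls also rested on single arrays. Leaving out VILI replicate 2 gave 19 calls, replicate 1 gave 59 and replicate 3 gave 74. Leaving out SB replicate 3 gave 31 and SB replicate 2 gave 135. The knockout arrays enter the estimate of spread, the filter on low values and the choice of probe set, but not the wild type means compared. Their SB replicates 1 and 3 moved the count to 182 and 487 when left out of the fit. With VILI replicates 1 and 2 averaged into 1 array 26 genes were called, all of them among the 290.

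**Figure D1:**
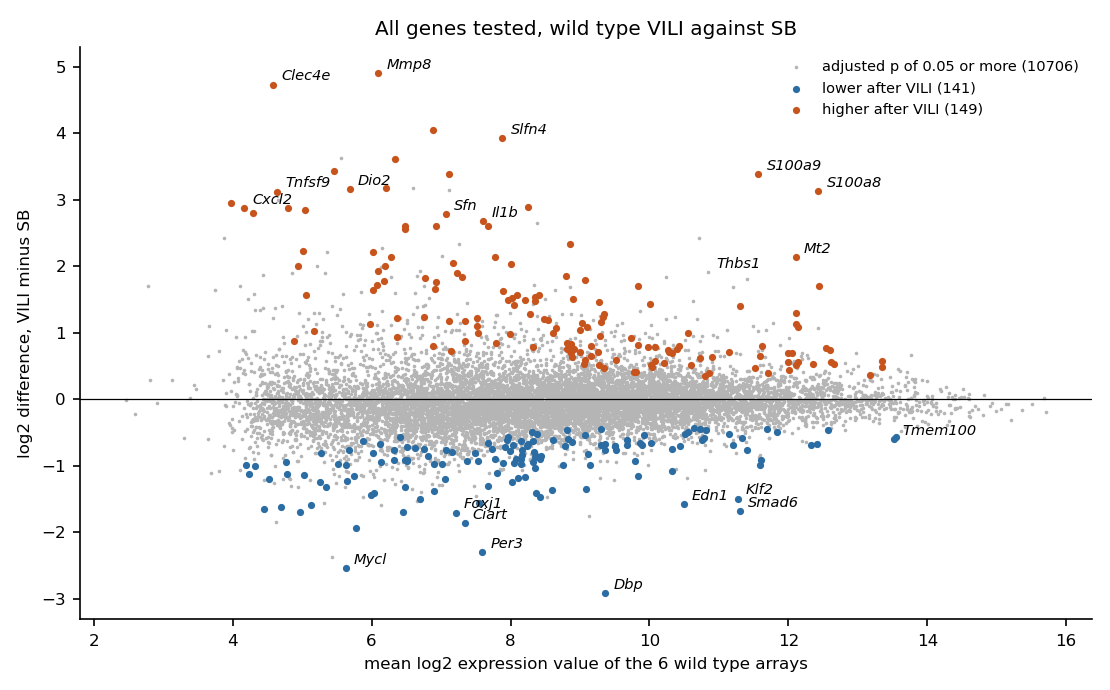
Each point is 1 of the 10996 genes tested, with its mean log2 expression value over the 6 wild type arrays on the horizontal axis and its log2 difference, VILI minus SB, on the vertical axis. Orange points are the 149 genes higher and blue points the 141 genes lower at adjusted p under 0.05; the largest rises lie above 4 and the largest fall, Dbp, at -2.91.

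Genes of neutrophil surface receptors were higher after VILI. Of 26 listed, 16 passed the filter on low values, and all 16 had higher means after VILI (42.2% of all genes tested). Of the 16, 6 were called higher (1.36% of all genes tested) and 0 lower. The median difference of the 16 was 1.51 (all genes: -0.05). Clec4e passed the filter only with its VILI arrays, and 6 genes present on the arrays stayed below it, 5 of them flat in both groups and Trem3 higher in VILI, so these counts do not describe the whole list. Clec4e, a lectin receptor for damaged cells and mycobacterial lipids, had values of 2.73, 2.03 and 1.87 in SB and 6.94, 7.74 and 6.15 in VILI, a difference of 4.73 (SE 0.67, adjusted p = 0.00768). A further Clec4e probe set was higher on each VILI array by a smaller difference, 1.71. It did not pass by limma among all probe sets (adjusted p = 0.308). Clec4d, the neighbour of Clec4e, which encodes the partner receptor, went from 5.26, 5.77 and 5.24 to 8.72, 9.23 and 8.5, a difference of 3.39 (SE 0.38, adjusted p = 0.00209). Each VILI array lay above each SB array for both genes, with VILI replicate 2 highest. The receptor for granulocyte colony-stimulating factor, Csf3r, stood at 7.37, 6.37 and 6.66 in SB and at 9.55, 10.27 and 9.24 in VILI, a rise of 2.88 (SE 0.39, adjusted p = 0.00675). Il1r2, a decoy receptor that binds interleukin 1 without signalling, was at 5.29, 5.73 and 3.56 in SB and 8.78, 9.53 and 8.39 in VILI, a rise of 4.04 (SE 0.67, adjusted p = 0.0179). Cxcr2, the receptor for the CXC chemokines described below, was at 6.01, 5.41 and 5.43 against 8.52, 9.07 and 7.08, a rise of 2.61 (SE 0.51, adjusted p = 0.029). Itgam, the integrin chain CD11b, rose by 2.0 (SE 0.41, adjusted p = 0.0331). VILI replicate 3 was the lowest VILI array for each of these 6 genes, but still above all SB arrays. Fcgr4 (2.21, adjusted p = 0.166), Pirb (1.6), Fpr2 (1.43) and C5ar1 (1.41) were among the 10 measured genes that did not pass. Left out in turn, single arrays gave 2 (without VILI replicate 2) to 8 called genes in this list, Clec4d and Csf3r remained called in all 12 such fits, and the highest adjusted p of each of the others ran from 0.0578 (Clec4e, without wild type VILI replicate 2) to 0.142 (Itgam, without wild type VILI replicate 2).

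Among granule and cytosol genes of neutrophils the cytosolic and late granule genes held the rises. Of 28 listed, 18 passed the filter, and 7 rose and 1 fell (1.36% and 1.28% of all genes tested). Mmp8, Ngp and Padi4 passed the filter only with their VILI arrays. Mmp8, the neutrophil collagenase, showed the largest rise of all genes, from 4.31, 3.77 and 2.85 to 8.99, 9.35 and 7.31, a difference of 4.91 (SE 0.73, adjusted p = 0.0114). S100a8 and S100a9 encode calprotectin, the main cytosolic protein of neutrophils. S100a8 read 11.13, 10.95 and 10.51 in SB and 13.92, 14.35 and 13.71 in VILI (difference 3.13, SE 0.25, adjusted p = 0.000416), and S100a9 read 10.17, 9.95 and 9.51 and 13.19, 13.68 and 12.91 (difference 3.38, SE 0.29, adjusted p = 0.000416). These were the brightest of the large rises, with narrow spread in both groups and no overlap. Stfa2l1, a cystatin-like protease inhibitor, went from 4.44, 4.87 and 4.55 to 7.24, 8.2 and 7.94 (difference 3.17, SE 0.34, adjusted p = 0.00151). Wfdc21 (difference 1.49, SE 0.3, adjusted p = 0.0294), Mmp9, the gelatinase of late granules (difference 1.18, SE 0.27, adjusted p = 0.0489), and Anxa1, an anti-inflammatory phospholipid-binding protein (difference 0.58, SE 0.12, adjusted p = 0.0329), also rose. G0s2, an inhibitor of triglyceride lipase that many other cells also make, was the member that fell, from 8.91, 9.36 and 9.2 to 7.57, 7.93 and 7.55 (difference -1.47, SE 0.19, adjusted p = 0.00463). Genes of primary granules, which are transcribed in bone marrow precursors, stayed below the filter: Mpo, Elane and Prtn3 lay between 1.89 and 2.22 on all 6 arrays. Ltf, of secondary granules, overlapped between groups (-0.41, adjusted p = 0.838), and the list's acute phase gene Lcn2 did not pass (1.04, adjusted p = 0.0563). In RNA of lung tissue, more neutrophils and more RNA of these genes per neutrophil cannot be told apart. S100a8, S100a9, Stfa2l1 and G0s2 remained called whichever array was left out, and the highest adjusted p of each of the others ran from 0.0736 (Mmp8, without wild type VILI replicate 2) to 0.194 (Mmp9, without wild type VILI replicate 2). The list's count ran from 4 (without SB replicate 3 or VILI replicate 2) to 9.

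**Figure D2:**
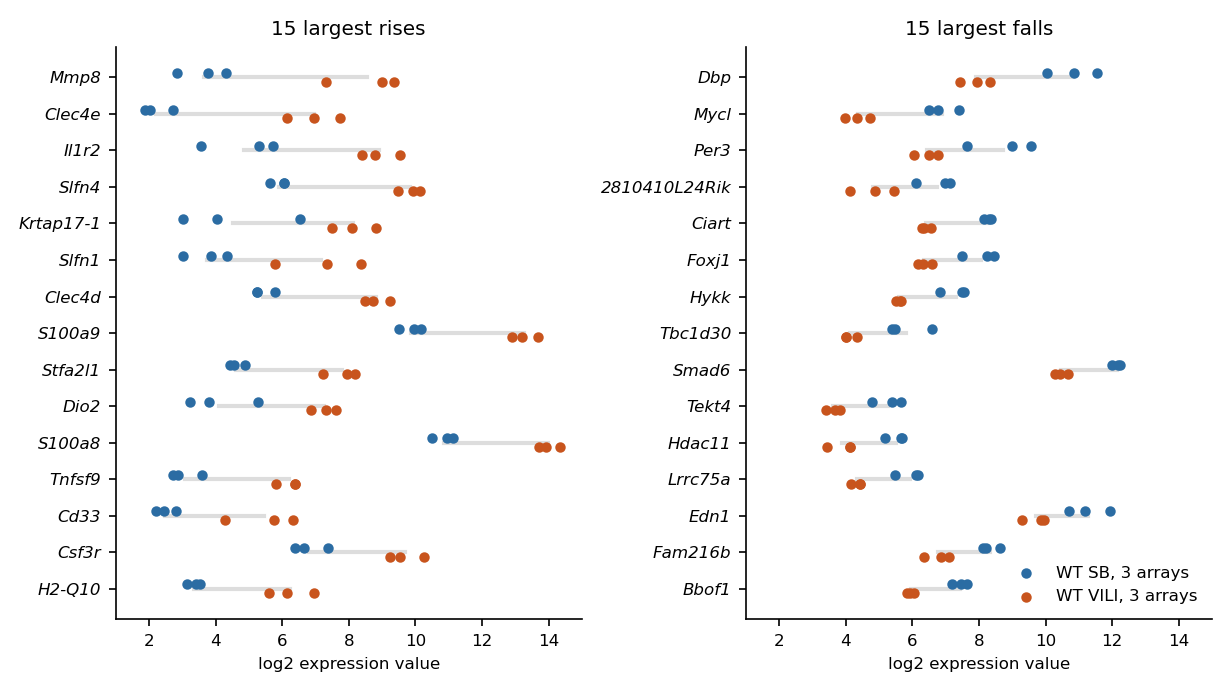
Deposited log2 expression values in each of the 3 wild type SB arrays (blue) and the 3 wild type VILI arrays (orange) for the 15 called genes with the largest rise (left) and the 15 with the largest fall (right); grey bars join the group means. No SB point overlaps the range of the VILI points for any of the 30 genes, and Mmp8 and Dbp have the widest gaps between group means.

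Other large rises included genes of myeloid cells and of the Schlafen family, whose members regulate growth and restriction of RNA in immune cells. All 5 measured Schlafen genes of 9 listed had higher means after VILI and 3 rose (42.2% and 1.36% of all genes tested). Slfn1 and Slfn8 passed the filter only with their VILI arrays. Slfn4 went from 6.06, 5.64 and 6.05 to 9.48, 10.13 and 9.92 (difference 3.92, SE 0.38, adjusted p = 0.00118), and Slfn1 from 4.35, 3.03 and 3.85 to 7.36, 8.37 and 5.79 (difference 3.43, SE 0.67, adjusted p = 0.029). Slfn2, next to Slfn1 on the chromosome, rose by 1.1 (SE 0.25, adjusted p = 0.0441). Slfn8 (1.4, adjusted p = 0.13) and Slfn5 (0.71, adjusted p = 0.216) did not pass although their groups did not overlap. Cd33, an inhibitory lectin of myeloid cells, read 2.81, 2.45 and 2.22 in SB and 5.77, 6.32 and 4.27 in VILI (difference 2.96, SE 0.67, adjusted p = 0.044), with VILI replicate 3 closest to SB. Ccr1, a receptor for CC chemokines, read 6.23, 6.42 and 6.47 and 9.17, 9.35 and 8.42 (difference 2.61, SE 0.35, adjusted p = 0.00675), and a further probe set of the gene was also higher on each VILI array. Alpl, tissue-nonspecific alkaline phosphatase, an enzyme abundant in neutrophils, read 3.55, 4.2 and 3.96 and 5.79, 6.5 and 6.11 (difference 2.23, SE 0.24, adjusted p = 0.00151). Cyp4f18, which inactivates leukotriene B4, rose by 1.85 (SE 0.3, adjusted p = 0.0168). H2-Q10, a secreted class I histocompatibility protein, read 3.41, 3.13 and 3.52 in SB and 6.14, 6.97 and 5.61 in VILI (difference 2.88, SE 0.35, adjusted p = 0.00348). Class I genes are close copies, so its probes may read relatives. The SB values of Cd33, Alpl and H2-Q10 lay below the array medians, so their fold changes are approximate. Of phagocyte oxidase genes 5 were measured and 0 passed, with Rac2 at 1.84, adjusted p = 0.131 and a median of 0.85. Slfn4, Alpl and H2-Q10 remained called in all 12 fits without 1 array. For the others the highest adjusted p of each ran from 0.0532 (Ccr1, without wild type VILI replicate 2) to 0.176 (Slfn2, without wild type VILI replicate 2).

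Cxcl1, Cxcl2 and Cxcl5 were the CXC chemokine genes that rose. They are the ligands of Cxcr2 that attract neutrophils. Cxcl2 read 2.08, 3.12 and 2.99 in SB and 5.25, 6.47 and 5.09 in VILI (difference 2.87, SE 0.55, adjusted p = 0.026). Cxcl5, made mostly by alveolar epithelium, read 3.53, 3.62 and 3.7 and 6.36, 5.93 and 7.11 (difference 2.85, SE 0.67, adjusted p = 0.049), and Cxcl1 read 4.25, 4.38 and 4.19 and 5.77, 5.49 and 6.27 (difference 1.57, SE 0.37, adjusted p = 0.0492). All SB values of these genes lay near or below the array median, and all VILI values above it. All 3 genes passed the filter on low values only with their VILI arrays, as did 138 of the 10996 genes (1.26%), so the number of them among the measured CXC genes is no evidence about the list. Cxcl10, induced by interferon, was at 1.01, adjusted p = 0.454, the platelet chemokine Ppbp at 0.82, adjusted p = 0.23, and Cxcl13, which attracts B cells, at -1.59, adjusted p = 0.373. Among the 7 measured CC chemokines, none called, Ccl9 had the largest difference (0.96, adjusted p = 0.171), and Ccl2, Ccl3 and Ccl4 lay at 1.84 to 2.76 on all 6 arrays, below the filter. The calls of Cxcl1, Cxcl2 and Cxcl5 were weak: the highest adjusted p of each ran from 0.121 (Cxcl2, without wild type VILI replicate 2) to 0.159 (Cxcl1, without wild type SB replicate 3), and without SB replicate 1, among other arrays, 0 of the 3 were called. Cxcl1 and Cxcl2 are neighbours, and the 250 bases before their starts are shown because they rose together and hold the same run of letters. Capitals mark matches to the NF-kB consensus, the site bound by the dimers of the inflammatory NF-kB family (RefSeq, GRCm38.p6; Cxcl1 chr5:90890995-90891244, plus strand; Cxcl2 chr5:90903649-90903898, plus strand; both 5' to 3').
Cxcl1: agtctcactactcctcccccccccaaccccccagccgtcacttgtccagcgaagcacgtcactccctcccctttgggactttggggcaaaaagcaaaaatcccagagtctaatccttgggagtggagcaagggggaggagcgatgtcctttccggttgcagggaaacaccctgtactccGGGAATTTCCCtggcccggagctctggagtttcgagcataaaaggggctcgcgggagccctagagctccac
Cxcl2: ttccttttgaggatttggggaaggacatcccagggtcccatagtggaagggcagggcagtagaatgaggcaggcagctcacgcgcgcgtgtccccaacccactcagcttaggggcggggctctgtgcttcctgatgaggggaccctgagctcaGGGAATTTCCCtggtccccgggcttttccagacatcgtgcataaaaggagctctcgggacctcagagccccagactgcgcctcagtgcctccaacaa

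In each of these promoters the capitals are a pair of overlapping matches, which begin at -71 and -70 in Cxcl1 and at -97 and -96 in Cxcl2 from the annotated start. Searched on both strands over the same 250 bases, the NF-kB consensus occurred in 16 of 124 genes that rose (12.9%), 7 of 113 that fell (6.20%), 8.59% of 8907 measured genes and 7.01% of 27025 RefSeq symbols. A match describes the letters and not binding.

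Cytokine genes moved in few members. Of 33 listed, 17 were measured, and 2 rose (1.36% of all genes tested). Tnfsf9 and Il6 passed the filter on low values only with their VILI arrays, so these counts do not describe the whole list. Il1b, the interleukin 1 beta precursor, read 6.84, 6.51 and 5.42 in SB and 8.91, 9.61 and 8.32 in VILI (difference 2.69, SE 0.45, adjusted p = 0.0183). Tnfsf9, the ligand of the costimulatory receptor 4-1BB, read 3.59, 2.89 and 2.73 and 6.38, 5.82 and 6.38 (difference 3.12, SE 0.36, adjusted p = 0.00209). Its groups did not overlap, and its SB values lay below the array medians. Il6 read 2.16, 3.61 and 2.21 in SB and 3.71, 4.44 and 7.14 in VILI, and did not pass (adjusted p = 0.113), the VILI replicate 3 value standing above the rest. Il1rn, the natural interleukin 1 antagonist, was at 2.0, adjusted p = 0.0911. Tnf (2.30 to 2.44), Csf3 and Il10 lay at the lower end in both groups. Among 34 measured cytokine receptor and signalling genes 4 rose (1.36% of all genes tested). Il18rap, the accessory chain of the interleukin 18 receptor, rose by 2.14 (SE 0.49, adjusted p = 0.0465) and Il17ra by 1.04 (SE 0.19, adjusted p = 0.0238). Osmr, the oncostatin M receptor, rose by 0.63 (SE 0.15, adjusted p = 0.0495), and Stat3, the transcription factor downstream of it and of interleukin 6, from 11.61, 11.47 and 11.46 to 11.82, 11.95 and 11.95 (difference 0.4, SE 0.09, adjusted p = 0.0407). Further Stat3 probe sets, at 1.01 (adjusted p = 0.071) and 0.23 (adjusted p = 0.5), did not pass by limma among all probe sets. Socs3, the feedback inhibitor of Stat3, was higher on each VILI array at 1.69, adjusted p = 0.0717. Tnfsf9 remained called without any 1 array; the highest adjusted p of each of the others ran from 0.0896 (Il1b, without wild type VILI replicate 2) to 0.195 (Osmr, without wild type VILI replicate 2).

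Pattern receptor and NF-kB genes gave few calls, 2 of 22 and 1 of 23 measured, all higher (1.36% of all genes tested). Myd88, the adaptor of most Toll-like receptors, read 8.36, 8.74 and 8.28 in SB and 9.61, 9.62 and 9.58 in VILI (difference 1.14, SE 0.19, adjusted p = 0.0165). Tlr13, an endosomal receptor of bacterial ribosomal RNA, rose by 1.9 (SE 0.39, adjusted p = 0.0338), while Tlr2 (1.08), Tlr4 (0.73) and Tlr7 (1.23) did not pass. Tlr1 and Tlr7 passed the filter on low values only with their VILI arrays. The kinase Map3k8, which links NF-kB and MAP kinase signalling, rose by 1.58 (SE 0.31, adjusted p = 0.0292). Bcl3 (1.63, adjusted p = 0.0517) and Nfkbiz (1.13, adjusted p = 0.0517), nuclear partners of NF-kB, lay just outside the threshold, whereas the inhibitors Nfkbia (-0.15) and Tnfaip3 (-0.09) were near 0. Of adhesion genes Itgam and Cd44, the hyaluronan receptor (difference 0.56, SE 0.13, adjusted p = 0.0476), rose, and Icam1 (0.18), Vcam1 (0.42) and Selp (0.64) did not pass. No gene of 24 measured interferon-stimulated genes passed, and their median was -0.08, with Rsad2, an antiviral enzyme, furthest from 0 (1.1, adjusted p = 0.162). A lower-signal probe set of Rsad2 did pass among all probe sets (difference 2.10, adjusted p = 0.0251), and the third was at 1.35 (adjusted p = 0.0577), so the probe sets of this gene disagree. In the prostaglandin and leukotriene list, Ptger4, an E prostanoid receptor, rose by 1.08 (SE 0.21, adjusted p = 0.029) and Ptgfr, the F prostanoid receptor, fell by 1.31 (SE 0.26, adjusted p = 0.0292). Ptgs2, the inducible cyclooxygenase, was high on SB replicate 2 (values 8.23, 11.1 and 8.6 in SB and 10.71, 11.15 and 11.61 in VILI), and the groups overlapped (1.84, adjusted p = 0.186). With single arrays left out, the highest adjusted p of these called genes ran from 0.081 (Myd88, without wild type VILI replicate 2) to 0.176 (Cd44, without wild type VILI replicate 2).

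**Figure D3:**
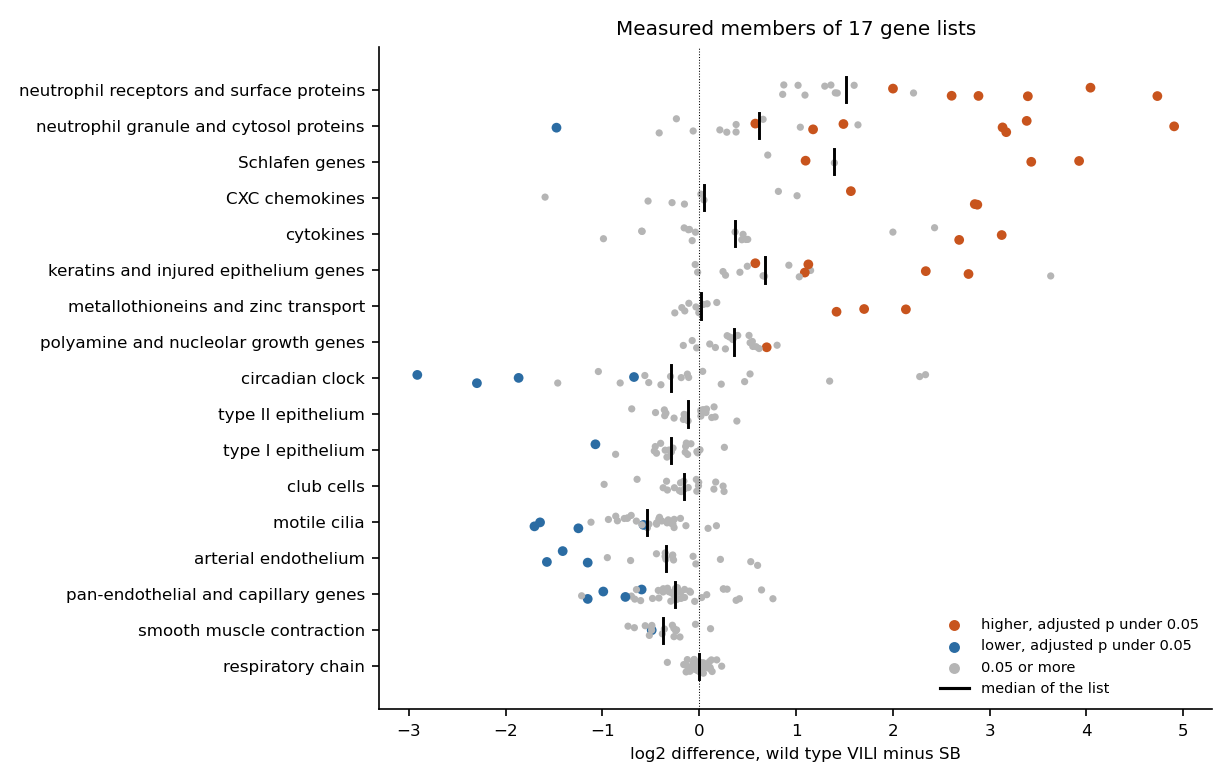
Log2 difference, wild type VILI minus SB, of each measured member of 17 gene lists (rows); orange and blue mark members higher and lower at adjusted p under 0.05, grey the rest, and black bars the list medians. Neutrophil receptors lie wholly to the right (median 1.51), 31 of 33 motile cilia genes to the left (median -0.53), and respiratory chain genes around 0 (median -0.01).

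Immediate early genes are switched on within minutes by stress or growth signals, and here SB replicate 2 was higher in them than the other SB arrays. Its mean over 16 AP-1 and ATF genes lay 0.78 above the SB mean, against -0.48 and -0.30 for SB replicates 1 and 3, and 0.59, 0.60 and 0.88 for the VILI arrays. Fosb and Fosl1 of this list passed the filter on low values only with their VILI arrays, so its VILI means were partly raised by that choice. Jun, which pairs with Fos proteins in the AP-1 factor, rose by 0.74 (SE 0.13, adjusted p = 0.0206) without overlap and was the list's called member. Atf3 read 5.76, 9.26 and 6.13 in SB and 9.48, 9.63 and 10.01 in VILI, so that SB replicate 2 lay close to the VILI arrays (2.66, adjusted p = 0.0895). Fosl1 (3.0, adjusted p = 0.0601) had the same order, with values of 2.54, 4.35 and 2.55 and 5.54, 6.05 and 6.86. Egr2, a zinc finger factor, rose from 4.28, 6.35 and 4.9 to 7.57, 7.65 and 8.15 (difference 2.61, SE 0.46, adjusted p = 0.0201), and Egr1 was at 2.43, adjusted p = 0.0671. Klf2, a factor that laminar blood flow induces in endothelium, fell from 11.58, 12.27 and 12.2 to 10.3, 10.5 and 10.77 (difference -1.49, SE 0.23, adjusted p = 0.0132). Without SB replicate 2 the AP-1 list had 2 and the immediate early list 4 called members. Egr3 of the immediate early list passed the filter on low values only with its VILI arrays. For Jun, Egr2 and Klf2 the highest adjusted p without 1 array ran from 0.0792 (Klf2, without wild type SB replicate 3) to 0.094 (Egr2, without wild type SB replicate 3).

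The Myc family moved in both directions. Myc, which drives ribosome production and growth, read 5.02, 5.93 and 4.66 in SB and 7.45, 7.79 and 8.05 in VILI (difference 2.56, SE 0.37, adjusted p = 0.00997). Mycl, its relative with a narrower tissue range, read 6.77, 6.5 and 7.4 and 4.74, 3.97 and 4.35 (difference -2.54, SE 0.46, adjusted p = 0.0235); the VILI values lay near the array medians. Other members of the network, 9 of 11 measured, did not pass, and Max, the shared partner, was at -0.03. Odc1, the first enzyme of polyamine synthesis and a known Myc target, rose by 0.7 (SE 0.13, adjusted p = 0.0256). Of the 19 measured polyamine and nucleolar genes, 16 had higher means after VILI and 11 lay wholly above SB (42.2% and 11.6% of all genes tested), but Odc1 alone passed, with Nop58 at 0.8, adjusted p = 0.0998. Among translation factors, a group chosen after its values were seen, Eif2s2 (difference 0.56, SE 0.12, adjusted p = 0.033), Eif4e2 (difference 0.63, SE 0.14, adjusted p = 0.0427) and Eif5 (difference 0.53, SE 0.09, adjusted p = 0.0197) rose, 3 of 46 measured genes whose symbols begin with Eif. The median of the 46 was 0.06, and 1.36% of all genes tested were called higher. Ribosomal protein genes had a median of -0.02 and respiratory chain genes one of -0.01, with 0 calls in 26 and 34 measured. For Myc, Mycl and Odc1 the highest adjusted p without 1 array ran from 0.0617 (Myc, without wild type VILI replicate 2) to 0.119 (Mycl, without wild type VILI replicate 2).

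Stress genes rose in a few strong members. Of all genes tested 1.36% were called higher. Metallothioneins are small metal-binding proteins induced by zinc, glucocorticoids and oxidants. Mt2 read 11.25, 11.56 and 10.3 in SB and 12.89, 13.26 and 13.37 in VILI (difference 2.13, SE 0.33, adjusted p = 0.0129), and its neighbour Mt1 read 11.82, 12.02 and 10.93 and 12.94, 13.44 and 13.5 (difference 1.7, SE 0.31, adjusted p = 0.0235). SB replicate 3 was lowest for both, and no array overlapped between groups. The zinc importer Slc39a14, which inflammation induces in liver, rose by 1.42 (SE 0.22, adjusted p = 0.0129), while the other 9 measured genes of the metallothionein and zinc list did not pass and lay between -0.25 and 0.18. Of Nrf2 and glutathione genes 26 were measured and 2 rose, Slc7a11, the cystine importer (difference 2.21, SE 0.47, adjusted p = 0.0359), and Gsr, glutathione reductase (difference 0.8, SE 0.16, adjusted p = 0.029). Hmox1 (1.5, adjusted p = 0.159) and Srxn1 (1.33, adjusted p = 0.14) were higher on each VILI array without passing, and Nqo1 was at -0.08. Adm, which encodes the vasodilator adrenomedullin, rose from 7.34, 6.79 and 5.97 to 8.91, 9.07 and 8.54 (difference 2.14, SE 0.36, adjusted p = 0.0187). Slc2a3, a high-affinity glucose transporter, rose from 7.28, 6.84 and 6.85 to 8.88, 9.23 and 8.96 (difference 2.04, SE 0.21, adjusted p = 0.00151) and remained called without any 1 array. Other hypoxia and glycolysis genes, such as Ldha (-0.01) and Vegfa (-0.33), did not pass. Of p53 targets and apoptosis genes 25 were measured, and Sesn1 (difference 0.7, SE 0.16, adjusted p = 0.0465) and the survival factor Mcl1 (difference 0.49, SE 0.11, adjusted p = 0.0476) rose. Gadd45a itself was at 1.01, adjusted p = 0.167, with values of 8.62, 9.51 and 8.69 and 9.75, 9.77 and 10.33, Gadd45b at 0.21, adjusted p = 0.604 and Gadd45g at 0.88, adjusted p = 0.0907. No gene passed among the lists of unfolded protein response (30 measured, Atf3 furthest), heat shock (18, Hspa1a at 0.93, adjusted p = 0.518) or cell division (21, Bub1 at 0.62, adjusted p = 0.639). Apart from Slc2a3, the highest adjusted p of each called gene without 1 array ran from 0.076 (Mt2, without wild type VILI replicate 2) to 0.174 (Mcl1, without wild type VILI replicate 2).

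Metabolic and hormone genes changed singly rather than as groups. Dio2, the enzyme that activates thyroid hormone, read 3.8, 5.29 and 3.23 in SB and 7.31, 6.88 and 7.61 in VILI (difference 3.16, SE 0.49, adjusted p = 0.0129), and the other 11 measured thyroid and retinoid genes did not pass. Dio2 passed the filter on low values only with its VILI arrays. Rdh12, a retinol dehydrogenase outside the thyroid and retinoid list, went from 2.87, 2.89 and 2.91 to 5.74, 6.24 and 5.09 (difference 2.8, SE 0.35, adjusted p = 0.00423). Its SB values lay below the array medians, so its fold change is approximate. Srebf1, a regulator of fatty acid synthesis, fell by 0.66 (SE 0.15, adjusted p = 0.0479), and Txnip, an inhibitor of glucose uptake and thioredoxin, by 0.57 (SE 0.12, adjusted p = 0.0359). Falls outside the lists were those of Adi1, an enzyme of methionine salvage (difference -0.77, SE 0.12, adjusted p = 0.0129), and Hykk, hydroxylysine kinase, which went from 6.84, 7.5 and 7.55 to 5.66, 5.51 and 5.64 (difference -1.7, SE 0.22, adjusted p = 0.00436). Sgms1, a sphingomyelin synthase, rose by 0.78 (SE 0.13, adjusted p = 0.0171). Rdh12 and Hykk remained called in all fits without 1 array, and the highest adjusted p of each of the others ran from 0.0634 (Dio2, without wild type SB replicate 3) to 0.179 (Srebf1, without wild type VILI replicate 2).

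Several keratin and injury genes of the epithelium rose. Of 31 listed, 17 were measured, 15 had higher means after VILI, 5 rose and 0 fell, with a median of 0.68. Of all genes tested 42.2% had higher means and 1.36% were called higher. Cldn4 passed the filter on low values only with its VILI arrays. Below the filter, Krt4, Krt5, Krt14, Krt15, Krt17, Krt20, Sprr1b and Trp63 were flat in both groups, and Sprr1a and Ereg were higher in VILI. The counts therefore do not describe the whole list. Sfn, an epithelial 14-3-3 protein induced by damage, read 5.27, 6.32 and 5.45 in SB and 7.97, 8.38 and 9.03 in VILI (difference 2.78, SE 0.45, adjusted p = 0.016). Tnfrsf12a, the receptor of the cytokine TWEAK, read 7.71, 8.15 and 7.2 and 9.91, 10.25 and 9.93 (difference 2.34, SE 0.37, adjusted p = 0.0159). Krt8 (difference 1.13, SE 0.2, adjusted p = 0.0206) and its partner Krt18 (difference 1.09, SE 0.21, adjusted p = 0.0286), the keratin filaments of simple epithelium, lie side by side in the genome and rose by similar amounts. VILI replicate 3 was the highest array for Sfn, Krt8 and Krt18, unlike for the neutrophil genes. Cldn4, a tight junction claudin of injured alveolar epithelium, had a difference of 3.63, adjusted p = 0.0604, with values of 2.44, 5.76 and 3.01 in SB and 6.29, 7.17 and 8.64 in VILI. Krt19 was at 1.03, adjusted p = 0.0561. Anxa1, described above, was the list's remaining called gene. Krtap17-1, outside the list and annotated as a hair keratin-associated protein, read 3.02, 6.53 and 4.04 and 7.49, 8.1 and 8.82 (difference 3.61, SE 0.73, adjusted p = 0.0321), with SB replicate 2 nearest the VILI arrays. The per-array mean of the whole list lay 0.82 to 1.24 above the SB mean on the VILI arrays, highest on replicate 3, and 0.36 above it on SB replicate 2. The count of calls was 0 without SB replicate 3 or without VILI replicate 2, and 6 without SB replicate 2. The highest adjusted p of each called gene without 1 array ran from 0.0798 (Sfn, without wild type SB replicate 3) to 0.14 (Anxa1, without wild type VILI replicate 2).

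Tissue factor, F3, which starts clotting and is abundant in lung epithelium, was the called gene of 16 measured coagulation and fibrinolysis genes. It read 11.16, 11.93 and 11.29 in SB and 12.47, 12.72 and 13.08 in VILI (difference 1.29, SE 0.3, adjusted p = 0.049), and the call was lost without most single arrays, 10 of 12, where its adjusted p was at most 0.169 (F3, without wild type SB replicate 3). Thbs1, thrombospondin 1, was at 1.91, adjusted p = 0.0744 with SB replicate 2 high (9.01, 11.09 and 9.55 in SB, 11.54, 11.91 and 11.93 in VILI). Plat (0.94) and Plaur (1.15) did not pass, and the anticoagulant genes Thbd (-0.23) and Procr (-0.49) had lower means. The 250 bases before the start of F3 are shown because they hold 2 close matches to the AP-1 motif. Capitals mark the motif TGANTCA, whose matches begin at -146 and -135 (RefSeq, GRCm38.p6, chr3:121723287-121723536, plus strand).
F3: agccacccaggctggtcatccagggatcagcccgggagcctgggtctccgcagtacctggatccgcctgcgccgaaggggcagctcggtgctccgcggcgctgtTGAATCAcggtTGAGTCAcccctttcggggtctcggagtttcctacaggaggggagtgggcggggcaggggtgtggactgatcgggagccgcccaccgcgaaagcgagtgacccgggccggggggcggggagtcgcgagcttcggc

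The motif occurred in 8 of 124 genes that rose (6.45%), 0 of 113 that fell, 4.22% of measured genes and 6.87% of all RefSeq symbols. Among 39 measured genes of collagens and other matrix 0 passed, with Thbs1 furthest from 0, and Eln (0.73), Lox (0.97), Tnc (1.14) and Vcan (1.28, adjusted p = 0.246) had higher VILI values without overlap. Of metalloproteinases and inhibitors, Mmp8 and Mmp9 rose (1.36% of all genes tested were called higher) and 16 of 18 measured did not pass.

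Endothelial genes had lower means after VILI, though few passed. Of 41 measured pan-endothelial and capillary genes of 43 listed, 32 had lower means, in 18 the VILI arrays lay wholly below SB, 4 fell and 0 rose, with a median of -0.25. Of all genes tested 57.8% had lower means, 20% lay wholly below SB, 1.28% were called lower and 1.36% higher. Sox17, a transcription factor of arterial endothelium, went from 10.55, 10.14 and 10.55 to 9.26, 9.34 and 9.18 (difference -1.15, SE 0.12, adjusted p = 0.00151). Clec14a, an endothelial lectin of vessel sprouting, fell by 0.99 (SE 0.2, adjusted p = 0.033). Tmem100, a target of the Alk1 receptor expressed strongly in lung capillaries, read 13.76, 13.84 and 13.85 and 13.4, 13.23 and 13.04 (difference -0.59, SE 0.11, adjusted p = 0.0259). Kit, which marks general capillary cells and also mast cells, fell by 0.76 (SE 0.18, adjusted p = 0.0494). A further Kit probe set was at -0.49 with overlapping groups, and did not pass by limma among all probe sets (adjusted p = 0.447). The mast cell genes Cpa3, Mcpt4 and Tpsb2 lay between 2.06 and 2.39 on all 6 arrays, below the filter. The identity genes Pecam1 (-0.24, adjusted p = 0.196), Cdh5 (-0.29, adjusted p = 0.481) and Kdr (-0.7, adjusted p = 0.0753) did not pass. Of 17 measured arterial genes 3 fell: Sox17, the connexin Gja4 (from 8.78, 9.07 and 9.38 to 7.78, 7.67 and 7.55; difference -1.41, SE 0.26, adjusted p = 0.0235) and Edn1, the vasoconstrictor endothelin 1 (from 11.94, 11.19 and 10.7 to 9.95, 9.86 and 9.3; difference -1.57, SE 0.27, adjusted p = 0.0198). Bcl6b, an endothelial repressor, moved the other way, from 7.67, 8.37 and 8.4 to 9.38, 9.8 and 9.79 (difference 1.51, SE 0.23, adjusted p = 0.0127), as did Gimap6, a small GTPase of lymphocytes and endothelium (difference 1.0, SE 0.14, adjusted p = 0.00717). Sox17 remained called in all 12 fits without 1 array; the highest adjusted p of each of the others ran from 0.0578 (Gimap6, without wild type VILI replicate 2) to 0.169 (Kit, without wild type SB replicate 3). The counts without 1 array were 1 to 6 for the pan-endothelial list and 1 to 3 for the arterial list, each lowest without VILI replicate 2 among others.

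Genes of bone morphogenetic protein (BMP) signalling, which keeps lung vessels quiescent, were led by Smad6. This inhibitor of the pathway, itself induced by BMP, read 12.25, 12.0 and 12.17 in SB and 10.28, 10.44 and 10.68 in VILI (difference -1.67, SE 0.14, adjusted p = 0.000416), among the firmest falls of all genes. In 13 of the 32 measured BMP and TGF-beta genes all VILI arrays lay below SB (20% of all genes tested), among them the endothelial receptors Acvrl1 (-0.44), Eng (-0.6) and Bmpr2 (-0.38) and the targets Smad7 (-0.48) and Id3 (-0.49), none of which passed. Id2 (difference 0.56, SE 0.12, adjusted p = 0.0397) and the TGF-beta receptor Tgfbr1 (difference 0.52, SE 0.11, adjusted p = 0.0381) rose. Tgif1, a repressor of TGF-beta responses outside the list, went from 6.89, 6.91 and 6.91 to 8.13, 8.28 and 7.98 (difference 1.22, SE 0.18, adjusted p = 0.0112). Vascular growth genes had a median of -0.35 over 24 measured, 19 of them with lower means (57.8% of all genes tested). Vegfa (-0.33, adjusted p = 0.0807), Angpt1 (-0.51, adjusted p = 0.109) and the adrenomedullin receptor parts Calcrl (-0.48, adjusted p = 0.129) and Ramp2 (-0.65, adjusted p = 0.14) did not pass, beside the rise of Adm. Fzd7, a Wnt receptor, fell by 1.03 (SE 0.18, adjusted p = 0.0206), the called gene of 33 measured Wnt and Notch genes, 24 of which had lower means (57.8% of all genes tested). Dixdc1, a cytoplasmic activator of Wnt signalling, went from 9.65, 9.8 and 9.82 to 8.42, 8.24 and 8.56 (difference -1.35, SE 0.19, adjusted p = 0.00745). Smad6 remained called without any 1 array, and the highest adjusted p of each of the others ran from 0.0578 (Dixdc1, without wild type VILI replicate 2) to 0.163 (Tgfbr1, without wild type VILI replicate 2).

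Among fibroblast growth factor genes, a group chosen after its values were seen, a ligand and 2 receptors fell. Fgf7, the keratinocyte growth factor that mesenchyme sends to alveolar epithelium, went from 9.63, 9.54 and 9.73 to 8.78, 8.67 and 8.48 (difference -0.99, SE 0.12, adjusted p = 0.00422) and remained called without any 1 array. Its receptor gene Fgfr2 went from 10.47, 10.9 and 10.71 to 9.95, 9.86 and 10.06 (difference -0.74, SE 0.15, adjusted p = 0.033), and Fgfr3 fell by 0.59 (SE 0.13, adjusted p = 0.0381). Fgfr4 was at -1.05, adjusted p = 0.163, and 4 of the 5 measured receptor genes had lower means (57.8% of all genes tested). No fibroblast or pericyte marker of 24 measured passed, with Tcf21 furthest (-1.18, adjusted p = 0.0659). Smooth muscle genes gave 17 lower means of 18 (57.8% of all genes tested) and a median of -0.37. Tagln, a smooth muscle actin-binding protein, fell from 12.11, 11.99 and 12.13 to 11.51, 11.61 and 11.64 (difference -0.49, SE 0.11, adjusted p = 0.0387). Without 1 array its adjusted p was at most 0.14 (Tagln, without wild type SB replicate 3).

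Motile cilia genes had lower means almost throughout. Cilia on airway cells are built from dynein motors, radial spokes and transport proteins, under control of the factor Foxj1. Of 37 listed genes 33 were measured, and 31 had lower means after VILI (57.8% of all genes tested). In 17 the VILI arrays lay wholly below SB (20% of all genes tested). Of the 33, 4 fell and 0 rose (1.28% and 1.36% of all genes tested), with a median difference of -0.53. Foxj1 read 7.5, 8.45 and 8.23 in SB and 6.31, 6.58 and 6.18 in VILI (difference -1.7, SE 0.37, adjusted p = 0.0424). Tekt4, a tektin of the axoneme, read 4.79, 5.66 and 5.38 and 3.81, 3.42 and 3.67 (difference -1.64, SE 0.37, adjusted p = 0.0435), the VILI values lying below the array median. Akap14 fell by 1.25 (SE 0.29, adjusted p = 0.0489) and the dynein light chain Dynlrb2 by 0.57 (SE 0.11, adjusted p = 0.029). The list's mean on VILI replicates 1 to 3 was -0.60, -0.78 and -0.37 from the SB mean, and SB replicate 1 was at -0.25. Other called ciliary genes, found by their symbols after values were seen, were Cfap206 (-0.69), Cfap65 (-0.66), Cfap70 (-0.9), Dnah1 (-1.12), Dnah6 (-0.8), Ift46 (-0.59), Ift81 (-0.61) and Spag8 (-1.2). Bbof1, of the basal body (difference -1.49, SE 0.29, adjusted p = 0.026), went from 7.65, 7.46 and 7.2 to 5.92, 5.85 and 6.06. By symbol, 16 of 17 measured Cfap, 8 of 8 Dnah, 13 of 14 Ift and 6 of 6 Bbs genes had lower means. Other prefixes counted in the same way were more mixed, with lower means in 5 of 7 Spag, 24 of 32 Ttc, 21 of 30 Cep and 41 of 65 Ccdc genes. Of all genes tested 57.8% had lower means. Cilia genes are active in the same cells and are not independent. Without SB replicate 2, the SB array highest in cilia genes, 0 of the 4 were called, and the highest adjusted p of each called gene named with its test ran from 0.121 (Bbof1, without wild type VILI replicate 2) to 0.194 (Akap14, without wild type VILI replicate 2).

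Alveolar and club cell identity genes gave few calls. Of 21 measured type I genes 19 had lower means (57.8% of all genes tested), with a median of -0.29, and Rtkn2 fell by 1.07 (SE 0.2, adjusted p = 0.0259), a call that ended without each of 5 single arrays. Its adjusted p was then at most 0.121 (Rtkn2, without wild type VILI replicate 2). The abundant markers Ager (-0.27, adjusted p = 0.177), Sftpc of type II cells (-0.16, adjusted p = 0.195) and Scgb1a1 of club cells (-0.19, adjusted p = 0.113) were slightly lower on each VILI array and did not pass, and their values of 14.45 to 15.82 lie near the top of the scale, where differences can be compressed. No gene passed among 21 type II, 20 club cell and 31 junction genes measured. Cftr, the chloride channel of airway and alveolar fluid secretion, rose from 6.25, 7.02 and 6.97 to 7.55, 7.82 and 8.43 (difference 1.19, SE 0.27, adjusted p = 0.0456), and the sodium channel subunits Scnn1a (-0.22), Scnn1b (-0.43) and Scnn1g (-0.4) did not pass. Prss8, a protease that activates this sodium channel, fell from 9.09, 9.36 and 9.31 to 8.39, 8.16 and 8.25 (difference -0.98, SE 0.16, adjusted p = 0.0171). The highest adjusted p of Cftr and Prss8 without 1 array ran from 0.0892 (Prss8, without wild type VILI replicate 2) to 0.14 (Cftr, without wild type VILI replicate 2).

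Of 21 measured clock genes 4 fell and 0 rose (1.28% and 1.36% of all genes tested). The clock is a feedback loop in which Arntl and Clock activate Per, Cry, Nr1d and Dbp through the E-box, and Dbp, Tef and Hlf in turn act on the D-box. Dbp read 10.86, 10.05 and 11.54 in SB and 7.93, 8.35 and 7.44 in VILI (difference -2.91, SE 0.37, adjusted p = 0.00427), the largest fall of all genes. Per3 read 9.56, 7.64 and 9.01 and 6.5, 6.78 and 6.04 (difference -2.3, SE 0.48, adjusted p = 0.0337), and Ciart, a repressor of the loop, read 8.32, 8.14 and 8.35 and 6.28, 6.36 and 6.57 (difference -1.86, SE 0.21, adjusted p = 0.00209). Nr1d2, a nuclear receptor that represses Arntl, fell by 0.67 (SE 0.12, adjusted p = 0.0235). The relatives Tef (-1.04, adjusted p = 0.0604) and Hlf (-1.46, adjusted p = 0.124) lay lower on each VILI array without passing. Arntl was at 2.28, adjusted p = 0.0523, with values of 5.14, 5.67 and 4.21 and 7.49, 7.01 and 7.36, and Nfil3, which opposes Dbp at the D-box, at 2.34, adjusted p = 0.171, where SB replicate 2 overlapped VILI. Per1 (-0.56) and Per2 (-0.4) did not pass. Of 23 measured glucocorticoid targets only the metallothioneins Mt1 and Mt2 passed, and Per1, Tsc22d3 (-0.35) and Fkbp5 (1.11) did not. The time of day of collection is not given, and a difference in it between groups cannot be told apart from the treatment. Without 1 array the list had 2 to 6 calls, Dbp and Ciart remained called throughout, and the highest adjusted p of Per3 and Nr1d2 ran from 0.105 (Nr1d2, without wild type SB replicate 3) to 0.132 (Per3, without wild type SB replicate 3). The promoters of Ciart and Per3 are shown because they hold the clock's own motifs several times. Capitals mark CACGTG, the E-box, in Ciart (3 matches, from -116, -58 and -44) and TTATGNAA, the D-box, in Per3 (2 matches, from -205 and -158; RefSeq, GRCm38.p6; Ciart chr3:95882229-95882478, minus strand; Per3 chr4:151044666-151044915, minus strand; both 5' to 3' of the gene's strand).
Ciart: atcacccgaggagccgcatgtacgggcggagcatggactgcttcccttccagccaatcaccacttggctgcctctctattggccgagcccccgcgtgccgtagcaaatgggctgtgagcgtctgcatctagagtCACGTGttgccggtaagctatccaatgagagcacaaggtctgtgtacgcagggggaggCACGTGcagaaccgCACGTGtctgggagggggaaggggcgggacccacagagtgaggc
Per3: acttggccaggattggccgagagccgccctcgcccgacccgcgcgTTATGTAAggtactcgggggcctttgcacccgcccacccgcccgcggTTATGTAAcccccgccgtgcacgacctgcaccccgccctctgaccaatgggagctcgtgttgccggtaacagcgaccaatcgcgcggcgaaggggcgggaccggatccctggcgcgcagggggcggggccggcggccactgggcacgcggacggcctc

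The E-box stood in 12 of 113 genes that fell (10.6%), 7 of 124 that rose (5.65%), 8.47% of measured genes and 6.05% of all symbols. The D-box stood in 1 of the genes that fell (0.885%), 5 that rose (4.03%), 1.83% of measured genes and 3.23% of all symbols. Both strands were searched in each case.

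**Figure D4:**
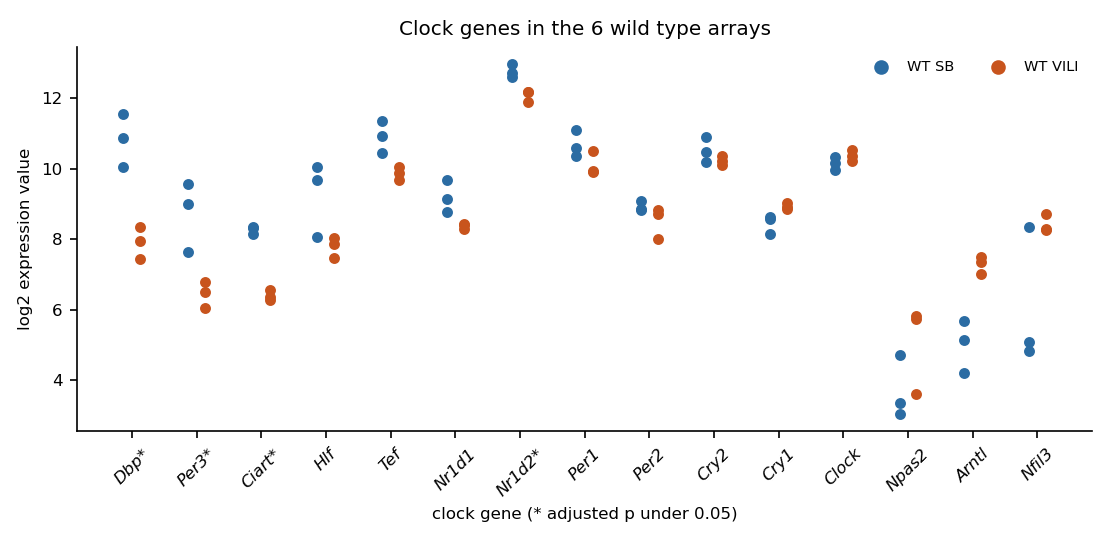
Log2 expression values of 15 clock genes on the 3 wild type SB arrays (blue) and the 3 wild type VILI arrays (orange), with an asterisk on genes at adjusted p under 0.05. Dbp, Per3, Ciart and Nr1d2 fell with no overlap, Arntl was higher on each VILI array (adjusted p = 0.0523), and Nfil3 overlapped through SB replicate 2.

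Markers of other cell types varied between arrays. T and NK cell genes had higher means in 13 of 13 measured genes (42.2% of all genes tested), with a median of 0.58 and 0 calls, and Gzma at 0.87, adjusted p = 0.198. Their mean lay at 0.53, -0.46 and -0.07 around the SB mean on SB replicates 1 to 3 and at 0.85, 0.74 and 0.20 on VILI replicates 1 to 3, so the groups overlapped. Cd3g passed the filter on low values only with its VILI arrays. Other T and NK members on the arrays, such as Cd3e, Cd4 and Cd8a, stayed below the filter with little difference between groups. The counts therefore do not describe the whole list. Macrophage and monocyte genes had 0 calls in 22, with Cd68 at 1.29, adjusted p = 0.31 and the resident macrophage gene Marco at 1.21. Platelet genes had 0 calls in 6. Genes of heart muscle, fat, B cells and mesothelium varied among arrays of a group more than between groups. The muscle list lay at 0.71, -0.94 and 0.23 around its SB mean on the SB arrays and at -0.52, -0.65 and 1.27 on the VILI arrays. The corresponding SB values were 0.94, -1.14 and 0.20 for fat and 0.64, -0.88 and 0.23 for B cells, so SB replicate 2 held least of all 3. Nppa, of atrial muscle, ran from 2.89 on SB replicate 2 to 11.08 on VILI replicate 3. Their part in other results was not tested, and 0 genes of these 4 lists were called.

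**Figure D5:**
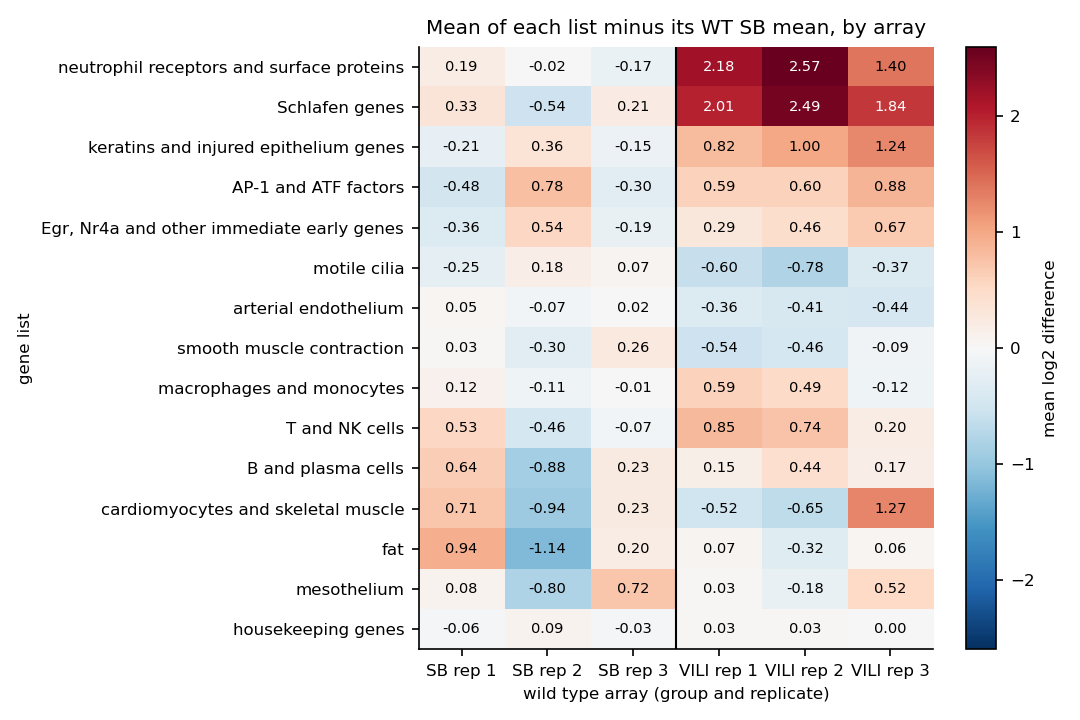
Mean over the measured members of each gene list (rows) on each wild type array (columns), as a log2 difference from the mean of the 3 SB arrays; red is higher and blue lower. Neutrophil receptor and Schlafen lists are red on all 3 VILI arrays and cilia and arterial lists blue, whereas muscle and fat differ most within groups, with SB replicate 2 at -0.94 and -1.14.

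Several called genes belonged to no list. Besides Hykk and Bbof1, described above, the largest falls among them were 2810410L24Rik (from 7.12, 6.13 and 6.99 to 5.45, 4.87 and 4.13; difference -1.93, SE 0.4, adjusted p = 0.0335), Tbc1d30, a GTPase activator (difference -1.69, SE 0.39, adjusted p = 0.0486), Hdac11, a histone deacetylase (difference -1.61, SE 0.38, adjusted p = 0.0492), Lrrc75a (difference -1.59, SE 0.2, adjusted p = 0.00436) and Fam216b (difference -1.55, SE 0.35, adjusted p = 0.0431). By the size of the moderated t, falls also included Cdkn2c, an inhibitor of the cell cycle kinases Cdk4 and Cdk6 (from 8.25, 8.49 and 8.32 to 7.29, 7.22 and 7.23; difference -1.11, SE 0.17, adjusted p = 0.0114). Ago1, which carries microRNAs, went from 9.73, 9.92 and 10.05 to 9.19, 9.08 and 9.14 (difference -0.76, SE 0.12, adjusted p = 0.0159), and its neighbour Ago4 fell by 0.95 (SE 0.22, adjusted p = 0.0456). The last was chosen after its value was seen. Esyt3 (difference -1.31, SE 0.18, adjusted p = 0.00717), Hspa12a (difference -0.94, SE 0.13, adjusted p = 0.00854), Ankmy2 (difference -0.79, SE 0.13, adjusted p = 0.0165) and D630039A03Rik (difference -1.41, SE 0.23, adjusted p = 0.0165) fell too. Rises by the same rule were Tubb6, a tubulin (from 7.18, 8.08 and 8.35 to 9.48, 9.86 and 9.84; difference 1.86, SE 0.3, adjusted p = 0.0161), and Lrrc8a, the volume-regulated anion channel that opens when cells swell (from 9.97, 9.96 and 9.78 to 10.66, 10.63 and 10.63; difference 0.74, SE 0.11, adjusted p = 0.0127). No array overlapped between the groups for any of these genes. Lrrc75a remained called without any 1 array, and the highest adjusted p of each of the others, Ago4 aside, which was not refitted, ran from 0.0557 (Esyt3, without wild type VILI replicate 2) to 0.173 (Fam216b, without wild type VILI replicate 2).

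Of the 72 gene lists 34 held no called gene by limma. Of their 562 measured genes 92 (16.4%) had an unadjusted p under 0.05, against 2327 (21.2%) of all genes tested. These lists were taken for holding no called gene, whereas the share of all genes includes the called ones, so a lower share was partly set by that choice. Besides those described above, their members furthest from 0, each named for its size, included Pik3r5 of the PI3K, Akt and mTOR list (1.27, adjusted p = 0.0676), a pathway named in the study's title, where 0 of 29 measured genes passed and the median was -0.08, Egfr of the EGF receptor list (1.25, adjusted p = 0.0704), Dusp8 of the MAP kinase phosphatases (1.19, adjusted p = 0.343) and Irs1 of the insulin-like growth factor list (0.69, adjusted p = 0.247). Among cell markers they were Nkx2-1, the lung epithelial master regulator (-0.7, adjusted p = 0.234), Cckar of club cells (-0.98, adjusted p = 0.146), Zbtb46 of dendritic cells (-0.55, adjusted p = 0.286), Pou2af1 of B cells (1.93, adjusted p = 0.396), Car2 of erythroid cells (-0.2, adjusted p = 0.651), Pck1 of fat (-1.17, adjusted p = 0.521), Satb1 of the thymus list (0.73, adjusted p = 0.381) and Uchl1 of nerve (0.93, adjusted p = 0.27). Bst1 led NAD metabolism (0.91, adjusted p = 0.0802) and Ube2d3 the ubiquitin list (0.55, adjusted p = 0.126). The housekeeping genes had a median of -0.04, with Tbp furthest (0.4, adjusted p = 0.358), followed in the ribosomal and respiratory lists by Rpl14 (-0.25, adjusted p = 0.377) and Sdhc (-0.33, adjusted p = 0.171). The lists together held 76 of the 290 called genes, 52 higher and 24 lower, among 1215 measured list genes. Of all genes tested 2.64% were called. The lists were chosen with earlier results of these data known, so the number of calls in them is no evidence about the lists.

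The same ventilation in knockout lungs gave a test of whether the wild type response differed. No gene passed for the difference between the responses (0 of 10996, 0%, with 288 at an unadjusted p under 0.05 by limma). Of the 290 called genes 287 had the same sign in knockout lungs, and 164 were called there with that sign. Some estimates lay apart, such as Cxcl1 (wild type 1.57, knockout 3.94), Adm (2.14 and 1.02), Dio2 (3.16 and 1.29) and Dbp (-2.91 and -1.26). None of these differences passed, which does not show that the responses were equal.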

How the data were processed

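Total RNA of lung tissue in 12 samples, 3 per group, was hybridised to single-colour Affymetrix mouse arrays. The values used are the deposited log2 values of 45101 probe sets. MAS5 and GCRMA are both named in the submitters' processing notes, with no role given to either, and the values have a floor and spread close to a log2 scale. No scanner files were used here, so no normalization was redone.

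The 64 control probe sets were set aside. A probe set was kept if it lay above its array's median on at least 3 of 12 arrays (23082 kept). Of the 45037 others than controls, the platform annotation gave 1 symbol to 34945, several to 932 and none to 9160, and 34741 matched RefSeq (GRCm38.p6). The probe set with the highest mean stood for each of 10996 genes. Of the named called genes 40 had other kept probe sets, 57 in all, of which 57 had the same sign and 23 passed among probe sets. limma 3.58.1 in R 4.3.3, with the package data.table at 1.17.8, fitted 1 mean per group to all 12 arrays, so that knockout arrays share in the spread, with a mean-variance trend (residual degrees of freedom 8, prior 3.36). The contrast was VILI minus SB in wild type, with Benjamini-Hochberg adjustment over all genes and a threshold of 0.05. P-values measure the spread between these animals, as far as the 3 mice per group of the series design are the 3 arrays. The fit was tested on simulated data.

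Members and gene lists were chosen with earlier results of these data known, so counts in lists, set beside the shares of all genes, are descriptions. Named genes were the 15 largest called rises and falls without overlap, every called list member, the member furthest from 0 in a list without a call, Gadd45a, Gadd45b and Gadd45g, and the 20 other called genes with the highest moderated t. Replicate numbers recur across groups, but same-numbered SB and VILI arrays deviated from their group means with correlations of -0.011, -0.037 and 0.059, so the numbers were not taken to pair them. Alternatives covered the arrays fitted, the replicate block, the filter, scaling, the choice of probe set, the trend, low values and each array left out. Averaging VILI replicates 1 and 2 was added after seeing the data. Genes named by a family prefix or chromosome neighbour were chosen after their values were seen and were not followed through the alternatives.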

Additional observations from a re-analysis of the deposited data

Results flagged for a closer look

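Probe sets to which the platform annotation gives no symbol or several entered no comparison of genes. Of 3424 such probe sets above the filter, 59 were higher and 9 lower after VILI in wild type lungs by limma at an adjusted p under 0.05. They were fitted among 23082 probe sets, of which 373 passed. These signals stand outside the gene table and have no name here.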

How the results depend on the processing

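The 290 calls (149 higher, 141 lower) became 475 with only the 6 wild type arrays (260 lower), 112 without the filter on low values (56 higher, 56 lower) and 26 with VILI replicates 1 and 2 as 1 array (15 higher, 11 lower, chosen after seeing the data). With every probe set as its own row 88 genes were lower. Leaving out 1 array gave 19 to 487 calls, 11 to 209 higher and 8 to 278 lower. A replicate block gave 442 calls, 251 of them higher, of which 275 were shared with the 290; with the block and only the wild type arrays there were 38, 27 higher and 11 lower. The numbers are not shown to pair the arrays. Settings not named here kept all 3 counts within 1.5 times. No result reversed, and the difference between genotypes had 0 calls in each setting that holds knockout arrays (148 to 767 genes at an unadjusted p under 0.05 by limma). Of the values under alternatives of named genes and of call counts per gene list, 4116 kept their direction and side of the threshold (counts, within 1.5 times), 1038 were weaker and 155 stronger. The causes were not tested. Of 106 named called genes 19 remained called whichever array was left out. Precision is limited by 3 arrays per group, and 13 called genes had an SB mean and 12 a VILI mean below the array median, where fold changes are approximate.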

Other observations

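Genes next to each other on a chromosome were called together in 17 places, found after the values were seen. Among 10955 adjacent pairs of 10978 placed genes, 10 pairs rose together and 7 fell together. Besides pairs described above, Wfdc17 and Wfdc21, which encode small protease inhibitor-like proteins, rose, as did Sh3pxd2b with Ubtd2 and Zfand5 with Gda. Tmem100 with Mmd, Ankmy2 with Meox2, Camk2n1 with Ubxn10, Cep70 with Esyt3 and Zmym3 with Nono fell, as did 2810410L24Rik with 2900052L18Rik.

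Further promoter motifs were counted in the same way. The antioxidant response element TGACNNNGC stood in 15.3% of the genes that rose, 16.8% of those that fell and 12.1% of measured genes. The C/EBP site TTGCNNAA, bound by factors of myeloid and liver cells, stood in 11.3%, 12.4% and 7.52%. The cyclic AMP response element TGACGTCA stood in 4.03%, 0.885% and 2.65%. These are descriptions of 250 bases on both strands.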
